A study of Homo sapiens with 9 samples.

Results

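CXCL1, CXCL2, CXCL3, CXCL5, CXCL8 and CXCL16 are the CXC chemokine genes described here. These 6 genes were found by their symbols among the 58735 genes of a table of RNA-seq read counts. They had been picked because earlier results of the same libraries showed them moving in opposite directions with inhibitors of ERK and of TBK1 and IKKε. Their values in the comparisons below are therefore given as a description, without a p-value, and counts of members past a criterion support nothing. The direction that the name of the set gives held in part: CXCL2, CXCL5 and CXCL8 were lower with the ERK inhibitor and higher with the TBK1/IKKε inhibitor, and so was CXCL1, with a smaller difference for the latter. CXCL3 was lower with the ERK inhibitor and CXCL16 higher, and for both the DMSO libraries overlapped those with the TBK1/IKKε inhibitor.

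RNA came from MIA PaCa-2, an established human pancreatic cancer cell line, labelled wild type in all 9 libraries. Cells were treated for 24 h with 0.1% DMSO (the vehicle), with 1 μM compound 1 (an inhibitor of TBK1 and IKKε) or with 1 μM SCH772984 (an ERK inhibitor), with 3 libraries per condition. The labels do not say whether replicates were separate cultures, so spreads and p-values cover the differences between these libraries, which may be technical. One cell line at 1 dose and 1 time of each inhibitor was measured, and compound 1 acts on both kinases, so TBK1 and IKKε cannot be told apart.

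Library totals were 9464432 to 10286223 counts with DMSO, 9652741 to 9840769 with compound 1 and 11056977 to 13887859 with SCH772984. Mitochondrially encoded genes took 6.23% to 7.52% of counts with SCH772984, against 3.33% to 3.98% with DMSO and 3.41% to 3.92% with compound 1. Compound 1 replicate 1 stood apart from replicates 2 and 3 of its group: chi-square per degree of freedom of its gene counts against them was 11.1 and 8.29, against 2.78 between replicates 2 and 3. The members' log2 fold changes and the counts of calls it changes most are also given without it, and levels and shares include it. Of the epithelial and cell line markers, KRT8, KRT18, KRT19 and VIM were expressed in every group, EPCAM had 0 counts in all libraries, and KRT7 and CDH1 had at most 5. The summed level of that list of 8 was 5927 to 6295 CPM (counts scaled to the library total, with TMM factors) with DMSO, 5512 to 6674 with compound 1 and 3280 to 3593 with SCH772984, where KRT8 fell by 1.69 and KRT18 fell by 2.40 on the log2 scale. The summed level of 8 leukocyte markers was 2.53 to 5.14 CPM in the 9 libraries. The summed level of 6 fibroblast markers, most of it COL1A2, was 1034 to 1173 CPM with SCH772984, against 465 to 515 (DMSO) and 474 to 539 (compound 1), and that of 5 endothelial markers, among them CDH5, was 2.87 to 4.49 CPM (DMSO), 6.24 to 6.89 (compound 1) and 0 to 0.537 (SCH772984). The part of the mitochondrial share, of these markers and of compound 1 replicate 1 in the values below was not tested, beyond the values without that library.

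Chemokines are small secreted proteins that guide migrating cells through G protein-coupled receptors. CXCL1, CXCL2, CXCL3, CXCL5 and CXCL8 (interleukin-8) carry a glutamate-leucine-arginine motif ahead of the paired cysteines. They attract neutrophils through CXCR2, and CXCL8 also binds CXCR1. Their transcription is induced by NF-κB, with AP-1 and C/EBP factors taking part at CXCL8, and their mRNAs are short-lived. CXCL16 differs from them: it is made as a membrane-bound protein that binds CXCR6, and its soluble form is released by the proteases ADAM10 and ADAM17. TBK1 and IKKε are kinases related to the IκB kinases and are best known for switching on type I interferon genes.

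The 5 neutrophil-attracting members lie within 359 kb of each other on chromosome 4 of hg38, each on the strand given. CXCL8 (ENSG00000169429) is at chr4:73740506-73743716 on the plus strand and CXCL1 (ENSG00000163739) at chr4:73869393-73871242, also plus. CXCL5 (ENSG00000163735) at chr4:73995642-73998779, CXCL3 (ENSG00000163734) at chr4:74036589-74038807 and CXCL2 (ENSG00000081041) at chr4:74097035-74099293 are on the minus strand. CXCL16 (ENSG00000161921) lies elsewhere, at chr17:4733526-4739922 on the minus strand.

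What these 5 genes share near their start is shown by the 30 bases around a κB-type motif, GGAANTTCC, in each promoter of the RefSeq table for GRCh38.p14. CXCL6, the neighbour of the same family that was barely expressed here, is shown beside them. Sequences run 5′ to 3′ on the strand of the gene, and capitals mark the motif.
CXCL8: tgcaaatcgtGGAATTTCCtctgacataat
CXCL1: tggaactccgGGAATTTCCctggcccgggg
CXCL2: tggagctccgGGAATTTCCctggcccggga
CXCL3: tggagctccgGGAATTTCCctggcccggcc
CXCL5: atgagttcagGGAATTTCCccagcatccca
CXCL6: ctgagttcagGGAATTTCCccagcatccca

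The windows are at chr4:73740468-73740497 for CXCL8, chr4:73869305-73869334 for CXCL1, chr4:74099253-74099282 for CXCL2, chr4:74038748-74038777 for CXCL3, chr4:73998748-73998777 for CXCL5 and chr4:73836579-73836608 for CXCL6. In all 6 the letters found were GGAATTTCC on the gene's own strand, beginning between 77 and 91 bases before the RefSeq start of the gene. The gene starts in the count table differ from those of RefSeq for all but CXCL1, and by the table's coordinates the windows of CXCL2, CXCL3, CXCL5 and CXCL6 lie inside the gene. Of 35116 promoters, 290 (0.826%) held GGAANTTCC on either strand in the 250 bases before the start. The promoters of EPGN, EREG, AREG and MTHFD2L, which follow the chemokine genes on the chromosome, did not hold these letters. CXCL6, with the same 9 letters, had 5 to 15 counts in the 9 libraries.

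The promoter of CXCL8 is shown at more length because it was the only one of the 6 chemokine promoters that also held an AP-1 motif (TGANTCA), an ETS-type motif (GGAAGT) and a TATA box (TATAAA). The stretch is chr4:73740319-73740505 on the plus strand, 250 to 64 bases before the RefSeq start, and capitals mark the ETS-type, AP-1 and κB-type motifs in that order.
CXCL8 upstream: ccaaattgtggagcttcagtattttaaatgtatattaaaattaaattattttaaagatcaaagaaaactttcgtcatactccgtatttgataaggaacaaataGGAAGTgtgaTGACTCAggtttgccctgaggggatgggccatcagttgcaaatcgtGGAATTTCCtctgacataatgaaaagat

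Its TATA box lies closer to the start, beginning 31 bases before it, and is outside the stretch printed. On either strand, TGANTCA was in 6.57% of all promoters, GGAAGT in 19.5% and TATAAA in 10.7%. The motifs did not overlap each other. A match of letters is a description of the sequence, and binding of a factor was not measured.

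The coding sequences of the members fell into groups. CXCL1, CXCL2 and CXCL3 shared 90.7% to 94.4% of coding bases, whereas CXCL5 shared 57.1% to 58.2% with these 3 and 87.4% with CXCL6. CXCL8 shared 46.7% to 50.5% with the other chromosome 4 members, and CXCL16 shared 23.2% to 27.9% with any member. Of the 50-base words in their transcripts, 5.73% of CXCL1, 9.24% of CXCL2 and 5.26% of CXCL3 also occurred in another of these 3 genes, so reads from such stretches may have been split among them or dropped. In CXCL8 the share was 0, in CXCL5 1.12% and in CXCL16 0.552%. Exons of CXCL16 overlap those of MED11 on the opposite strand over 85 bases (3.04% of its exon bases), and the strand setting of the counting is not given in the sources used here.

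CXCL8 was the member with the largest difference. With DMSO its counts were 1341, 1197 and 1264, with compound 1 they were 1975, 2106 and 2104, and with SCH772984 they were 12, 6 and 11. The groups did not overlap: every compound 1 library was above every DMSO library, and the SCH772984 libraries were far below both. Normalized to library size with TMM factors, CXCL8 averaged 136 ± 3.35 CPM in DMSO libraries, 217 ± 3.91 in compound 1 libraries and 0.748 ± 0.246 in SCH772984 libraries (SD, n = 3). This was a 179.9-fold lower level with SCH772984 than with DMSO (log2 fold change −7.49 ± 0.14, SE) and a 1.60-fold higher level with compound 1 (0.68 ± 0.07). SEs here and below were derived from the test statistic of the fit. For CXCL8 with SCH772984, DESeq2 gave a larger SE of 0.28 (log2 fold change −7.52). Among the 13834 genes tested for SCH772984 against DMSO, CXCL8 had the lowest log2 fold change. In bulk RNA, fewer expressing cells and less RNA per cell cannot be told apart.

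CXCL1 had counts of 1125, 1157 and 1020 with DMSO, 1448, 1388 and 1330 with compound 1, and 59, 56 and 64 with SCH772984. Its 3 groups did not overlap either, although the DMSO and compound 1 libraries were close. Levels in that order were 118 ± 8.44, 146 ± 8.91 and 4.64 ± 0.313 CPM. CXCL1 was 25.6-fold lower with SCH772984 (log2 fold change −4.68 ± 0.11) and 1.24-fold higher with compound 1 (0.31 ± 0.08). It held the 12th lowest log2 fold change of all genes tested with SCH772984.

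CXCL5 had counts of 791, 789 and 772 with DMSO, 1266, 1449 and 1391 with compound 1, and 98, 123 and 118 with SCH772984. Again no library of 1 group fell among those of another. Means of 84.2 ± 3.02 CPM (DMSO), 144 ± 7.52 CPM (compound 1) and 8.82 ± 1.36 CPM (SCH772984) made it 9.63-fold lower with SCH772984 (log2 fold change −3.27 ± 0.10) and 1.71-fold higher with compound 1 (0.78 ± 0.08).

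CXCL2 was expressed at a lower level and had the largest difference with compound 1. Its counts were 82, 70 and 56 with DMSO, 172, 149 and 156 with compound 1, and 24, 24 and 40 with SCH772984, without overlap between groups. Levels of 7.42 ± 1.17, 16.8 ± 1.55 and 2.24 ± 0.390 CPM gave a 2.26-fold higher level with compound 1 (log2 fold change 1.17 ± 0.16) and a 3.29-fold lower level with SCH772984 (−1.72 ± 0.24). In the order of log2 fold changes with compound 1, CXCL2 was the 34th highest of 12849 genes tested.

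CXCL3 was the member with the fewest reads. It had 32, 22 and 14 counts with DMSO, 25, 35 and 36 with compound 1, and 8, 11 and 13 with SCH772984. The SCH772984 libraries were below the other 6, and the DMSO and compound 1 libraries overlapped after normalization, at 1.53 to 3.28 and 2.69 to 3.74 CPM. With SCH772984 CXCL3 had a log2 fold change of −1.55 ± 0.38. With compound 1 it was 0.47 ± 0.30, and the 95% interval of −0.12 to 1.07 included both no difference and that of CXCL5 or CXCL8. At these counts a difference of CXCL3 with compound 1 was not detectable beyond the spread between libraries.

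CXCL16 went the other way with SCH772984. Its counts were 176, 157 and 183 with DMSO, 194, 195 and 146 with compound 1, and 373, 410 and 497 with SCH772984. All SCH772984 libraries, at 31.0 to 34.6 CPM, were above the other 6, whereas the DMSO (18.5 ± 1.40 CPM) and compound 1 libraries (18.8 ± 3.16 CPM) overlapped. CXCL16 was 1.78-fold higher with SCH772984 (log2 fold change 0.83 ± 0.11), and with compound 1 its log2 fold change was 0.03 ± 0.14, with a 95% interval of −0.24 to 0.30.

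**Figure D1:**
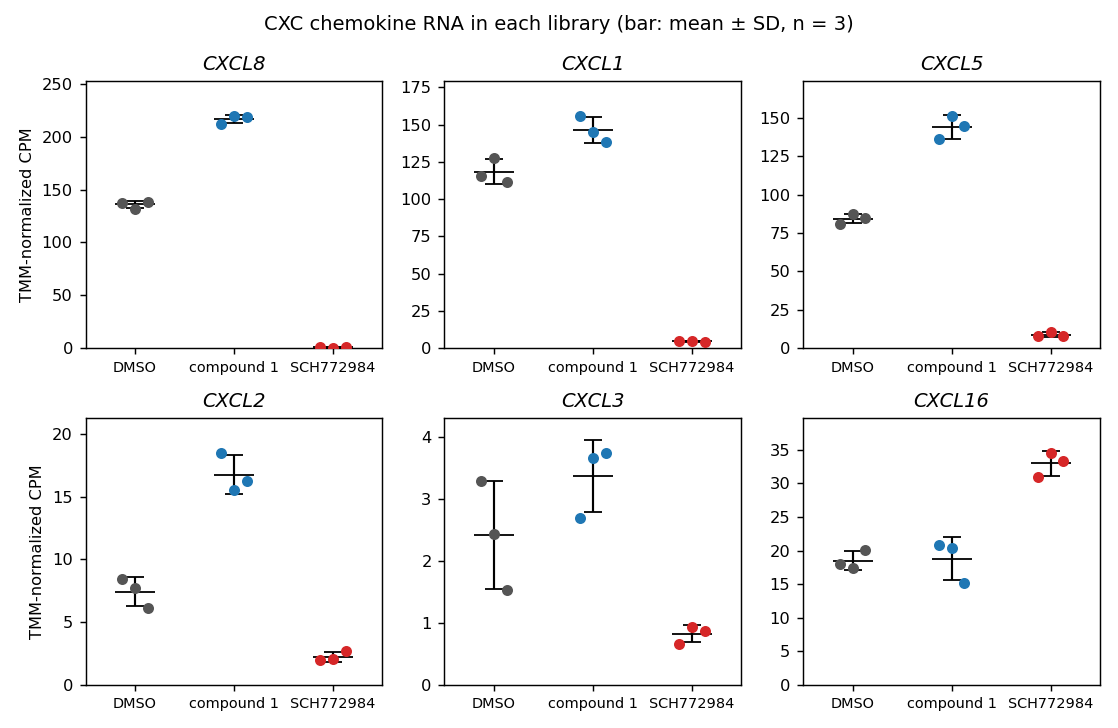
TMM-normalized CPM (vertical axis, linear and starting at 0) of each chemokine gene in each of the 9 libraries (points), grouped by treatment, with the mean and SD of 3 libraries as bars. CXCL8, CXCL1, CXCL5 and CXCL2 show 3 separate groups, CXCL3 overlaps between DMSO and compound 1, and CXCL16 is highest with SCH772984 (33.0 ± 1.83 CPM).

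For genes in general, an adjusted p under 0.05 (edgeR quasi-likelihood test, Benjamini-Hochberg adjustment over all genes tested) was the criterion for a call. With SCH772984, 5 members were lower and 1 higher by this criterion, in a comparison that called 72.8% of all genes tested (37.2% higher and 35.5% lower). With compound 1, CXCL2, CXCL5 and CXCL8 were higher by it, where 0.864% of all genes were called (0.49% higher and 0.374% lower). That share rests on single libraries: it was 9.56% without compound 1 replicate 1 (453 genes higher and 798 lower) and came from 8 to 17 genes when a DMSO library was left out. CXCL1 passed only an unadjusted p under 0.05, as did 7.35% of all genes in the higher direction and 7.69% in the lower. All 3 SCH772984 libraries were below all 3 DMSO libraries for 36.3% of genes and above them for 38%, and all 3 compound 1 libraries were above those of DMSO for 10.3% of genes. Since the members were picked from these comparisons, nothing is read from their counts.

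The median log2 fold change of the 6 members was −2.49 with SCH772984, against 0.03 for all genes tested, and 0.58 with compound 1, against 0.00. Scaling by library size alone instead of TMM moved the median of all genes with SCH772984 by 0.17 on the log2 scale and that of the members to −2.32, and no member changed direction. With compound 1 replicate 1 left out, the log2 fold changes with compound 1 were 0.69 ± 0.06 for CXCL8, 0.27 ± 0.07 for CXCL1, 0.82 ± 0.07 for CXCL5, 1.10 ± 0.17 for CXCL2, 0.61 ± 0.32 for CXCL3 and −0.05 ± 0.14 for CXCL16. CXCL3 moved most when single libraries were left out, from 0.24 without DMSO replicate 3 to 0.76 without DMSO replicate 1.

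**Figure D2:**
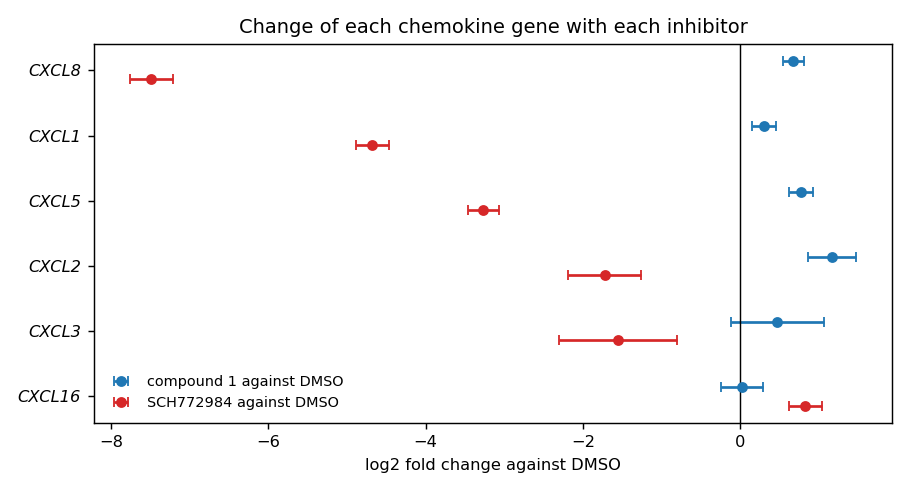
Log2 fold change against DMSO (horizontal axis) of each chemokine gene with compound 1 (blue) and SCH772984 (red), with 95% intervals. The intervals use SEs derived from the quasi-likelihood F of the fit across all genes, and can be too narrow where counts are few. CXCL8, CXCL1, CXCL5 and CXCL2 lie on opposite sides of 0 with the inhibitors, and CXCL16 lies at 0.83 with SCH772984 and 0.03 with compound 1.

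Both comparisons use the same 3 DMSO libraries. Set directly against each other in a fit of its own, SCH772984 and compound 1 libraries differed by log2 fold changes of −8.16 ± 0.16 for CXCL8, −4.98 ± 0.12 for CXCL1, −4.04 ± 0.12 for CXCL5, −2.88 ± 0.19 for CXCL2, −2.02 ± 0.34 for CXCL3 and 0.81 ± 0.13 for CXCL16. That comparison, which called 66.3% of all genes, needs no DMSO library, and it kept the order of the members. Without compound 1 replicate 1 the values in that order were −8.18 ± 0.15, −4.94 ± 0.12, −4.08 ± 0.11, −2.81 ± 0.22, −2.15 ± 0.40 and 0.89 ± 0.13.

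Over the whole table, 27 of 12752 genes tested in both comparisons (0.212%) were called in opposite directions by the inhibitors. Of these, 16 (0.125%) were lower with SCH772984 and higher with compound 1, CXCL2, CXCL5 and CXCL8 among them, and 11 (0.0863%) the reverse. Called in the same direction by both were 62 genes (0.486%). The count of 27 depended on single libraries and reached 287 without compound 1 replicate 1, and it was 5 without DMSO replicate 1, without DMSO replicate 2 or without compound 1 replicate 3, and 6 without DMSO replicate 3. It was 12 without compound 1 replicate 2.

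Levels of different genes can be compared per kilobase of gene length, as RPKM, which is CPM divided by gene length in kilobases. With DMSO the order was CXCL1 (91.2 ± 6.51 RPKM), CXCL8 (59.8 ± 1.47), CXCL5 (33.2 ± 1.19), CXCL16 (6.61 ± 0.500), CXCL2 (4.95 ± 0.780) and CXCL3 (1.09 ± 0.394), and no neighbours in this order overlapped. With compound 1 the first 3 kept their places, at 112.9 ± 6.87, 95.5 ± 1.72 and 56.8 ± 2.96 RPKM, and CXCL2 (11.2 ± 1.04) stood above CXCL16 (6.73 ± 1.13), again with CXCL3 last at 1.52 ± 0.263. With SCH772984 the order was another: CXCL16 was first at 11.8 ± 0.653 RPKM. CXCL1 (3.32 to 3.78) and CXCL5 (3.12 to 4.09) overlapped below it, followed by CXCL2 at 1.49 ± 0.260. CXCL3 (0.300 to 0.418) and CXCL8 (0.223 to 0.439) overlapped at the bottom. These values depend on the deposited lengths, 2219 bases for CXCL3 and 2274 for CXCL8. The GENCODE transcripts used for the 50-base words had 1075 and 1705 bases. The order by transcript length was not computed and may differ, also for this overlap.

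The RNA of the 5 neutrophil-attracting chemokines together came to 348 ± 7.88 CPM in DMSO libraries. The sum was 528 ± 7.09 CPM after compound 1 and 17.3 ± 1.13 CPM after SCH772984. Their mix differed as well. Shares are of the summed RPKM of these 5 genes and depend on the same deposited lengths. CXCL8 made up 31.5% ± 1.79 with DMSO, 34.4% ± 1.03 with compound 1 and 3.59% ± 1.28 with SCH772984. CXCL1 was the largest with DMSO, at 47.9% ± 1.81, and took 40.6% ± 1.92 with compound 1 and 38.8% ± 2.60 with SCH772984. CXCL5 went from 17.4% ± 0.521 to 20.4% ± 1.16 and 37.5% ± 3.98, and CXCL2 from 2.60% ± 0.383 to 4.02% ± 0.348 and 16.2% ± 3.34. What remained with SCH772984 was mostly CXCL1 and CXCL5.

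Along chromosome 4, the log2 fold change with SCH772984 was lowest at CXCL8, the first of the 5 members. It was less negative at CXCL1, 129 kb further on, and at CXCL5, 255 kb. CXCL3 at 296 kb (−1.55) and CXCL2 at 357 kb (−1.72) were less negative still, with CXCL2 below CXCL3. Besides the members, 29 genes of the table lie within 500 kb of the group, 15 had a count and 5 were tested. With SCH772984, 3 of these 5 were called, beside 72.8% of all genes tested. MTHFD2L, a mitochondrial folate enzyme next to CXCL2, fell from 228, 237 and 263 counts to 106, 121 and 167 (log2 fold change −1.37 ± 0.13, adjusted p = 1.1e-12). The EGF receptor ligand genes EPGN (1.73 ± 0.17, adjusted p = 4.13e-12) and AREG (0.84 ± 0.07, adjusted p = 1.17e-14) rose, by edgeR's quasi-likelihood test as before. Their sister gene EREG, at 3587 counts or more with DMSO, was at −0.09 ± 0.06 (adjusted p = 0.176, edgeR), and ANKRD17 was at −0.04 ± 0.07. The median of the 5 was −0.04, against 0.03 for all genes.

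With compound 1, 0 of the 5 neighbours were called by edgeR, 2 had an unadjusted p under 0.05 (1 higher and 1 lower), and DESeq2 called 0. Without compound 1 replicate 1 the count was 1, and 9.56% of all genes were called. Their log2 fold changes were −0.33 ± 0.13 for ANKRD17, −0.06 ± 0.09 for EREG, 0.23 ± 0.11 for MTHFD2L, 0.27 ± 0.08 for AREG and 0.37 ± 0.22 for EPGN. Of the members, CXCL1 (0.31) and CXCL16 (0.03) lay within the range of these values. Between the chemokine genes, PF4, PF4V1 and PPBP, chemokine genes of platelets, had at most 3 counts in any library.

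**Figure D3:**
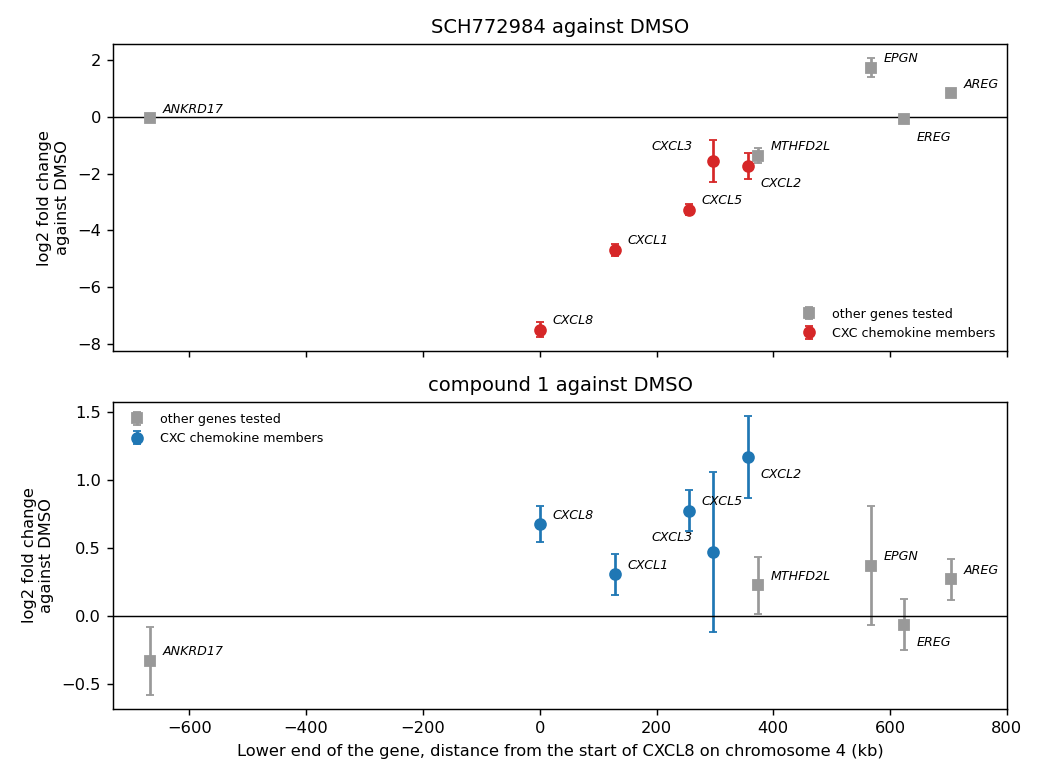
Log2 fold change against DMSO (vertical axis, different scales in the panels) of the chemokine genes (circles) and the 5 other genes tested (squares) by distance along chromosome 4, with 95% intervals as bars. With SCH772984 the members range from −7.49 at CXCL8 to −1.55 at CXCL3, with CXCL2 at −1.72. With compound 1 all 5 lie above 0, with the interval of CXCL3 reaching down to −0.12.

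The receptors of the members were hardly seen in these cells. CXCR1 had 0 counts in all 9 libraries, which allows up to 3 counts per library, CXCR2 had at most 1, and CXCR6, the receptor of CXCL16, at most 5. Of 63 other chemokine ligands and receptors, 29 had a count and 3 were tested with SCH772984. No other ligand passed the filter on low counts, and CXCL6 had the most counts of the CXC ligands among them. All 3 genes tested with SCH772984 were receptors and rose (37.2% of all genes did), but CXCR4 and CCR10 passed the filter only through the SCH772984 libraries and so had to differ, which leaves ACKR3. ACKR3, an atypical receptor that takes up CXCL12, went from 204, 162 and 164 counts with DMSO to 994, 1101 and 1569 (log2 fold change 2.30 ± 0.10, adjusted p = 2.07e-24, edgeR). CXCR4, the signalling receptor of CXCL12, went from 2, 7 and 4 counts to 30, 32 and 41 (2.48 ± 0.43). CCR10 went from 2, 13 and 1 counts to 33, 18 and 46 (2.08 ± 0.51). No p-value is given for CXCR4 and CCR10, since the filter set their direction. The log2 fold change of CCR10 ranged from 1.59 (DMSO replicate 3 left out) to 3.85 (DMSO replicate 2 left out). CCR10 shares exon bases with genes on the opposite strand (16.8% with AC100793.2). With compound 1 only ACKR3 was tested, at −0.14 ± 0.13, and 0 genes were called by edgeR, at an unadjusted p under 0.05 or by DESeq2.

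Among inflammatory cytokines, CSF3 and LIF fell with SCH772984. CSF3, the granulocyte growth factor that acts on the same neutrophils, had 177, 159 and 162 counts with DMSO, 292, 237 and 227 with compound 1, and 0, 6 and 7 with SCH772984. Its log2 fold change with SCH772984 was −5.69 ± 0.29. It passed the filter of that comparison only through the DMSO libraries, which set its direction, so no p-value is given. With compound 1 it rose (0.58 ± 0.12, adjusted p = 0.0438, edgeR). That call was lost when any library except compound 1 replicate 1 was left out among DMSO and compound 1 libraries (adjusted p 0.0582 to 0.267). LIF, a cytokine of the interleukin-6 family, fell with SCH772984 from 627, 527 and 618 counts to 59, 50 and 73 (−3.76 ± 0.12, adjusted p = 9.6e-30, edgeR) and was at 0.10 ± 0.09 with compound 1. Of 25 cytokines, 6 were tested with SCH772984, of which 3 rose and 2 fell, with a median log2 fold change of 0.50, in a comparison that called 72.8% of all genes. TNFSF10 and IL11, which are 2 of the 3 that rose, passed the filter only through the SCH772984 libraries, so their direction was set by it. IL11 was at 1.02 ± 0.36, given without a p-value for that reason. It ranged from 0.82 (SCH772984 replicate 3 left out) to 1.34 (DMSO replicate 3 left out). CSF1 rose by 0.35 ± 0.07. TNFSF10 (TRAIL), a death receptor ligand, had 0 counts in each DMSO library and 32, 25 and 42 with SCH772984, and no fold is given for it. With compound 1, 1 of 4 tested cytokines was called, CSF3, beside 0.864% of all genes, and the median was 0.34. IL32 was at 0.73 ± 0.29 with compound 1 (adjusted p = 0.248, edgeR) and 0.65 ± 0.33 with SCH772984.

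The members are commonly counted among NF-κB target genes, and other such genes moved with SCH772984 about as often as genes in general. Of 41 tested, 15 rose and 17 fell, beside 37.2% and 35.5% of all genes, with a median of −0.13. ICAM1 and MAP3K8, which are 2 of those that rose, passed the filter only through the SCH772984 libraries, so their direction was set by it. PHLDA2 (−2.67 ± 0.17) and PTX3, a pattern recognition protein (−2.05 ± 0.22), fell, and EFNA1 (2.34 ± 0.12) rose. Adjusted p-values of these genes by edgeR were 1.96e-18, 1.59e-11 and 1.88e-21. The adhesion molecule ICAM1 (2.37 ± 0.53, from 0 to 6 counts with DMSO to 19 to 28) is given without a p-value, since the filter set its direction. The log2 fold change of ICAM1 ranged from 1.80 (DMSO replicate 2 left out) to 3.33 (DMSO replicate 3 left out), and its exons overlap AC011511.5 on the opposite strand (22% of its exon bases).

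With compound 1, 4 of 39 tested NF-κB target genes rose and 0 fell, a share of 10.3% against 0.864% of all genes, and the median was 0.17. They were CD83, a surface protein of activated immune cells (0.85 ± 0.14, adjusted p = 0.0134, edgeR), NFKB2, which encodes the p100 precursor (0.48 ± 0.09, adjusted p = 0.0247, edgeR), PLAU, the urokinase plasminogen activator (0.37 ± 0.08, adjusted p = 0.0365, edgeR), and NFKBIA, which encodes IκBα (0.37 ± 0.08, adjusted p = 0.0383, edgeR). CD83 had 82, 88 and 96 counts with DMSO and 162, 159 and 168 with compound 1, and its log2 fold change stands beside 0.78 for CXCL5. At an unadjusted p under 0.05, 11 genes were higher and 1 lower. The list was drawn up with earlier results of these data known, so nothing is read from its share beside that of all genes. The 4 calls rested on single libraries: the count was 0 without DMSO replicate 1, without DMSO replicate 2 or without compound 1 replicate 3, 1 without DMSO replicate 3 and 10 without compound 1 replicate 1, where 9.56% of all genes were called. PLAU shares 31.1% of its exon bases with C10orf55 on the opposite strand.

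Regulators of chemokine transcription, mRNA decay and shedding were the last list. With SCH772984, 9 of 32 tested genes rose and 10 fell, a median of −0.10. That is 59.4% of the list, beside 72.8% of all genes called. AP-1 subunits and immediate early factors went both ways. FOSL1 fell from 987, 972 and 956 counts to 9, 18 and 39 (−5.94 ± 0.15, adjusted p = 5.09e-26, edgeR), and EGR1 from 193, 130 and 157 to 17, 10 and 34 (−3.45 ± 0.22, adjusted p = 8.17e-18, edgeR). JUN fell by 1.93 on the log2 scale. JUND (1.07 ± 0.08), JUNB (0.71 ± 0.10) and ATF3 (from 3.37 ± 0.307 to 9.64 ± 1.69 CPM, adjusted p = 1.24e-08, edgeR) rose, and FOS (0.53 ± 0.29) and FOSL2 (−0.07 ± 0.07) were not called. CEBPB, a C/EBP factor, fell by 0.96, whereas its relative CEBPD (2.09 ± 0.18, adjusted p = 8.11e-14, edgeR) and the epithelial ETS factor ELF3 (3.20 ± 0.19, adjusted p = 1.59e-19, edgeR) rose. The NF-κB subunit gene RELA was at −0.08 ± 0.09 (adjusted p = 0.409, edgeR). Of the proteases that release CXCL16, ADAM17 rose by 0.69 ± 0.07, as did RHBDF1 (1.29 ± 0.10), which encodes a partner of ADAM17. The other partner gene, RHBDF2, was at −0.16 ± 0.08 (adjusted p = 0.0707, edgeR) and ADAM10 at −0.13 ± 0.06 (adjusted p = 0.0557, edgeR). The other AP-1 subunits, CEBPB, RELA, the proteases and their partners were singled out after their values were seen.

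With compound 1, 0 of the 32 regulators were called by edgeR, 8 had an unadjusted p under 0.05 (2 higher and 6 lower) and DESeq2 called 1, with a median of −0.06. Without compound 1 replicate 1 the count was 6, and 9.56% of all genes were called. FOSL1 was at −0.22 ± 0.09 and EGR1 at 0.30 ± 0.13 with compound 1, while CXCL2 was at 1.17 ± 0.16.

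**Figure D4:**
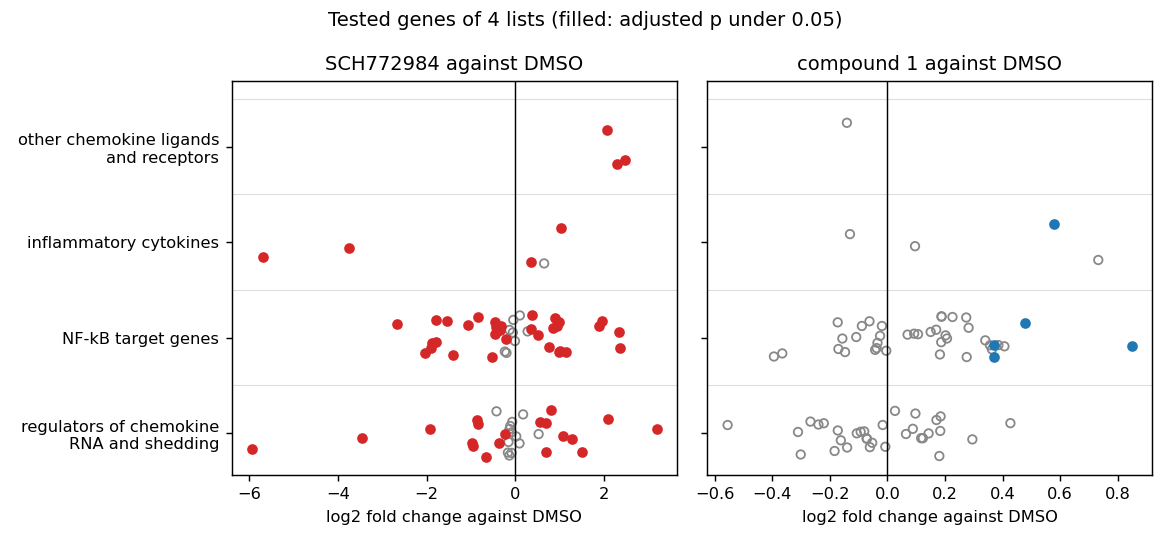
Log2 fold change against DMSO (horizontal axis, different scales in the panels) of the tested genes of 4 lists (vertical position within a list is arbitrary), filled where the adjusted p was under 0.05. TNFSF10, at 0 counts with DMSO, is left out. With SCH772984 filled points lie on both sides of 0 in 3 of the lists, and with compound 1 the 5 filled points, CSF3, CD83, NFKB2, PLAU and NFKBIA, lie above 0.

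Genes known to report ERK activity were a check of the ERK inhibitor in the same libraries. With SCH772984, 8 of 9 tested MAPK output genes fell, a median of −5.24, beside 35.5% of all genes. Of these, DUSP6, ETV4 (4 to 10 counts with SCH772984) and ETV5 (8 to 12) passed the filter only through the DMSO libraries. Their direction was therefore set by it. SPRY4, a feedback inhibitor of the pathway, had 2303, 2108 and 2064 counts with DMSO and 19, 20 and 41 with SCH772984 (−6.81 ± 0.11), and the ETS factor gene ETV5 was at −6.54 ± 0.15. ETV4 (−5.80 ± 0.21) and the ephrin receptor gene EPHA2 (−5.24 ± 0.08) fell too, and DUSP6, an ERK phosphatase, had 0, 1 and 0 counts with SCH772984 after 40, 25 and 51 with DMSO. DUSP6 shares 40.5% of its exon bases with AC024909.2 on the opposite strand. CXCL8 stood beside these genes at −7.49. EPHA4 rose (1.48 ± 0.06). With compound 1, 0 of 9 were called by edgeR and 3 had an unadjusted p under 0.05, all lower, with a median of −0.09.

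Genes induced by type I interferon, whose induction TBK1 is known for, rose with SCH772984 in 9 of 10 cases tested and fell in 0, a median of 1.29, beside 37.2% of all genes that rose. MX1 passed the filter only through the SCH772984 libraries, so its direction was set by it, and list genes that failed the filter are not in this count. Apart from MX1 (2.29 ± 0.43), the largest changes were those of IFI6 (2.30 ± 0.11), IFIT1 (1.77 ± 0.10) and STAT2 (1.73 ± 0.11). This list too was drawn up with earlier results of these data known. With compound 1, 0 of 9 were called by edgeR and 1 had an unadjusted p under 0.05, with a median of 0.09. Of the genes of the inhibited kinases, with SCH772984 MAPK3 (0.67 ± 0.08) and IKBKE (1.71 ± 0.27) rose, and TBK1 was at −0.15 ± 0.09. With compound 1 these 3 genes were at −0.15 ± 0.10, 0.60 ± 0.33 and 0.11 ± 0.09 (adjusted p = 0.526, 0.414 and 0.636, edgeR).

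Which other genes followed the members over the 9 libraries was described by Pearson's r of log2 CPM among 9954 protein-coding genes. The libraries fall into 3 treatment groups that set these values, so they are given without a p. CXCL8 was closest to SHC1 (r = 0.999), SKA1 and LTBP2, CXCL1 to NT5E (r = 0.999), SHC1 and AURKA, and CXCL5 to ZNF587B (r = 0.997), CBX3 and HMGN1. So many genes had an r over 0.95 with CXCL8 (1954), CXCL1 (2041) and CXCL5 (1483) that these names say little about the chemokines. CXCL2, with a higher level with compound 1 relative to its fall with SCH772984, had 105 such genes, led by RBX1 (r = 0.990), SPTSSA and SMIM20. CXCL16 had 231, led by RBM43 (r = 0.987), APH1B and NXN. The nearest genes differed from the members in size of change: SHC1, for one, was at −2.05 with SCH772984 and 0.11 with compound 1, against −7.49 and 0.68 for CXCL8.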

How the data were processed

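RNA from MIA PaCa-2 cells was sequenced by Novogene. The authors deposited raw counts for each gene, without normalization, and a column of gene lengths. The submitters' processing notes name hg38, HISAT2 2.0.5 and featureCounts 1.5.0-p3. The strand setting and annotation release are not given in the sources used here. Library totals were 9464432 to 13887859 counts.

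Libraries were grouped by their labels. Each pair of conditions was fitted on its own 6 libraries by the robust quasi-likelihood test of edgeR 4.0.16 (R 4.3.3), with TMM factors, filterByExpr (minimum count 10, minimum total 15) and Benjamini-Hochberg adjustment over all genes tested. A call is an adjusted p under 0.05. Levels are CPM with TMM factors over all 9 libraries, or RPKM from the deposited lengths. For likeness, genes needed a mean of 5 CPM, and log2 CPM had a prior count of 2. Fits were tested on simulated data.

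The members and the 225 genes in 11 lists were chosen with earlier results of these data known. Named were the members, called neighbours, the 4 called genes of each list and comparison with the largest change, the 3 genes most like each member and the check genes of the treatments. Other genes named were singled out after their values were seen. Of the MAPK and marker lists, examples or sums are given, and some genes of the lists are not reported here.

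Promoters came from a RefSeq table for GRCh38.p14, which held 5 of the 6 members. Exon overlaps, coding sequences and shared 50-base words came from GENCODE release 29. Coding sequences were aligned with Biopython 1.88.

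As alternatives, library size or RLE factors replaced TMM, the filter was dropped or set to 10 counts in every library, replicate number entered as a block, all 9 libraries shared a fit, noncoding genes were left out, DESeq2 1.42.0 replaced edgeR, calls used an unadjusted p or a change of at least 2-fold, and each library was left out in turn.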

Additional observations from a re-analysis of the deposited data

How the results depend on the processing

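CXCL16 with compound 1, near 0 at 0.03, was at −0.02 without DMSO replicate 2, −0.05 without compound 1 replicate 1 and −0.04 without compound 1 replicate 2. No other fold change recomputed for a gene and no median of the members changed sign. Medians of the members moved beyond the spread between libraries to −2.32 (SCH772984 against DMSO) and −3.32 (SCH772984 against compound 1) with scaling by library size, which also moved the share of higher genes among calls from 51.2% to 61.5% with SCH772984 and from 56.8% to 77.3% with compound 1, and to −2.41 with at least 10 counts in every library, which kept 4 members. Leaving out 1 library gave medians of −2.57 to −2.45 with SCH772984 and 0.48 to 0.71 with compound 1.

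With SCH772984, calls among other chemokine genes were 6 with no filter and 1 with at least 10 counts in every library, among cytokines 8 and 3, and at 2-fold among NF-κB targets 15 and among regulators 8. With compound 1, cytokine calls were 0 with all 9 libraries in one fit, 2 at an unadjusted p, 0 at 2-fold and 0 to 1 leaving out 1 library, and NF-κB target calls were 12 at an unadjusted p, 0 at 2-fold and 0 to 10 leaving out 1 library. Regulators called were 3 with no filter, 1 with DESeq2, 8 at an unadjusted p and 0 to 6 leaving out 1 library, and neighbours 1, 0, 2 and 0 to 1. Genes called in opposite directions were 99 with no filter, 46 with all 9 libraries, 16 among protein-coding genes, 62 with DESeq2, 465 at an unadjusted p, 2 at 2-fold and 5 to 287 leaving out 1 library. The causes were not tested.

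Whether replicate numbers pair the libraries cannot be settled with 3 libraries per group. Deviations of same-numbered libraries correlated at −0.0206 to 0.0800 for DMSO and compound 1, at 0.0124 to 0.0452 for DMSO and SCH772984 and at −0.0775 to 0.108 for compound 1 and SCH772984. Those of differently numbered libraries, in that order, correlated at −0.0536 to 0.0715, −0.0813 to 0.0586 and −0.100 to 0.150. With the number as a block, 3.21% of all genes were called with compound 1, against 0.864% without it. In that setting 109 genes were called in opposite directions, and 3 regulators and 1 neighbour were called with compound 1. The number of members called lower with SCH772984 and higher with compound 1 was then 4. That number was 3 as reported, 4 also with scaling by library size, no filter, DESeq2, an unadjusted p or without compound 1 replicate 1, 2 with at least 10 counts in every library and 1 at 2-fold. By depth, CXCL3 was limited most, at 8 to 36 counts per library.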
